A study of Mus musculus with 10 samples.

Results

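Chemokines and their receptors were described across 10 mouse liver libraries. The members were the genes of the deposited expression table with a Ccl, Cxcl, Ccr or Cxcr symbol and a number, together with Cx3cl1, Cx3cr1, Xcl1, Xcr1, Ackr1, Ackr2 and Ackr3. The 59 described here, among 24062 genes, are 39 ligands, 17 receptors and 3 atypical receptors. Messenger RNA came from 2 tumours of mice on a Western diet given carbon tetrachloride (CCl4) for 24 weeks, and from liver of mice on 4 regimens. These regimens were Western diet with CCl4 (WD_CCl4), Western diet with the oil vehicle (WD_oil), normal diet with CCl4 (ND_CCl4) and normal diet with oil (ND_oil). Each regimen was sampled once at 12 weeks and once at 24 weeks, each time as 1 pool of 4 mice, and each tumour came from a single mouse. CCl4 is a hepatotoxin activated in hepatocytes. Strain, sex, age and CCl4 dose are not stated in the labels, and no pool was repeated, so the pools of 12 and 24 weeks stood in as the repeats of a regimen.

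Chemokines are small secreted proteins that guide leukocytes along gradients. They act on G protein-coupled receptors that signal mainly through inhibitory G proteins, and most inflammatory ligands bind more than 1 receptor while several receptors bind more than 1 ligand. Atypical receptors bind chemokines without this signalling and take them up or carry them. In injured liver, Ccr2 and its ligand Ccl2 are known for bringing blood monocytes into the tissue, and Cxcl12 is made by stromal and endothelial cells and holds Cxcr4-bearing cells in place.

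Values below are normalised read counts, not divided by gene length, with 1 read worth 0.0287 to 0.0457. In every set of gene values the first number of a regimen is the 12-week pool and the second the 24-week pool. Sums of marker lists are instead given as ranges, from lowest to highest, in no order of time. Library totals ran from 23206229 to 30137802 reads, so 3 reads, taken as the limit that a count of 0 allows, came to 0.0862 to 0.137. This limit covers counting error only. Changes are log2 fold changes of (value + 1) with the standard error of the fit, which understates the change of low genes. Tested genes were those that reached a value of 1 in 2 or more libraries. That left 32 members, namely 21 ligands, 8 receptors and the 3 atypical receptors. The filter counted all libraries, tumours included, so low members could pass through the libraries where they were high. Ccl7 reached 1 only in the ND_CCl4 pools and tumour 1, and Ccl3, Ccl4 and Ccr1 only in libraries with CCl4. Ccl22 and Cxcl2 reached it only in tumour 1 and a single CCl4 pool. The results of these members are thus not independent of the filter. A gene passed the threshold, and is said to have risen or fallen, at an adjusted p under 0.05. In bulk tissue, fewer cells of a type and less RNA per cell cannot be told apart.

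The sequences just upstream of 5 ligands are shown because each carries letters that match the kappaB consensus, described below. Cxcl1 and Cxcl10 were above 0 in all 10 libraries, Cxcl2 in 9, Ccl20 in 6 and Cxcl3 in 2. The sequences come from RefSeq on GRCm38.p6, run 5′ to 3′ on the gene's strand, and end 31 bases before the annotated start. Capitals mark matches to the kappaB consensus, the sequence that NF-kappaB proteins bind, and in Cxcl10 also the first match, to the interferon-stimulated response element, sought as a pair of GAAA runs 2 bases apart. All matches were sought on both strands in the 250 bases before the start.
Cxcl10, chr5:92348920-92349112, minus strand: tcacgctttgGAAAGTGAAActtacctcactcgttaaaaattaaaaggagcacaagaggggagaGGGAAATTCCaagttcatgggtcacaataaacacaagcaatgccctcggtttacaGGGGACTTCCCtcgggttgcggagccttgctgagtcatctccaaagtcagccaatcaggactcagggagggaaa
Cxcl1, chr5:90891135-90891214, plus strand: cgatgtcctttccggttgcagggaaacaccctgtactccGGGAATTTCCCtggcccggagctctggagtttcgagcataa
Cxcl2, chr5:90903789-90903868, plus strand: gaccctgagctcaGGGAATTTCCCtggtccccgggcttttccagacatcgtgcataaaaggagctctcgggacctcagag
Cxcl3, chr5:90785991-90786070, plus strand: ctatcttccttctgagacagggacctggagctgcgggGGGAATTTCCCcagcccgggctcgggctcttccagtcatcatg
Ccl20, chr1:83116656-83116735, plus strand: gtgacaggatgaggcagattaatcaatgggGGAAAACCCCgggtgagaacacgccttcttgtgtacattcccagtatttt
Cxcl1, Cxcl2 and Cxcl3, neighbours on chromosome 5 that attract neutrophils through Cxcr2, share the run GGGAATTTCCC, where the matches on the 2 strands overlap. Cxcl10, a ligand of Cxcr3, has 1 interferon-stimulated response element and, nearer the start, kappaB matches at 2 places, the second on both strands. Among 27025 promoters of RefSeq, 7.01% held the kappaB consensus, 3.04% the interferon-stimulated response element and 7.18% the gamma-activated site TTCNNNGAA. Of the 44 members with an entry, 10 held the kappaB consensus, namely Ackr2, Ccl1, Ccl9, Ccl20, Ccr1, Ccr3, Cxcl1, Cxcl2, Cxcl3 and Cxcl10. The interferon-stimulated response element was held by 3 (Ccl19, Cxcl10 and Cxcl14) and the gamma-activated site by 3 (Ccl17, Ccr6 and Cxcl14). The other 15 members had no promoter entry. A match describes the letters only.

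More members passed the test in the comparisons with CCl4 than with the diet alone. With CCl4 on a normal diet (ND_CCl4 against ND_oil) 14 of the 32 tested members rose and 2 fell, where 15.3% of all tested genes rose and 10.6% fell. All 4 receptors called in any comparison were among those that rose, and the pair that fell was Ccl9 and Cxcl12. The median log2 change was 0.69 over the members and 0.004 over all tested genes. Without the ND_oil pool of 24 weeks 8 members passed, and without the ND_CCl4 pool of 24 weeks 9 did. Calls of 6 members (Ccl6, Ccl9, Ccr2, Cx3cr1, Cxcl16 and Cxcr4) held whichever pool was left out.

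In the joint exposure (WD_CCl4 against ND_oil) 11 members rose and 2 fell, where 15.7% of all tested genes rose and 10.2% fell. Its median log2 change was 0.58 over the members and -0.02 over all tested genes. Without the ND_oil pool of 24 weeks 8 members passed, and the calls of Ccl5, Ccl6, Ccl9, Ccr2, Cx3cl1, Cx3cr1, Cxcl16 and Cxcr4 held whichever pool was left out. With CCl4 added to the Western diet (WD_CCl4 against WD_oil) 4 members, Ccr2, Ccl6, Cxcl16 and Cx3cr1, rose and none fell, where 4.29% of all tested genes rose and 2.52% fell. None of these passed without the WD_oil pool of 24 weeks, while 2 passed without the WD_oil pool of 12 weeks and 1 without the WD_CCl4 pool of 24 weeks. With the diet alone (WD_oil against ND_oil) Ccl5 and Cxcr4 rose and no member fell, where 1.45% of all tested genes rose and 0.546% fell. Neither passed without the WD_oil pool of 12 weeks, and Ccl5 alone passed without either ND_oil pool or the WD_oil pool of 24 weeks. The comparisons against ND_oil share those 2 pools.

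**Figure D1:**
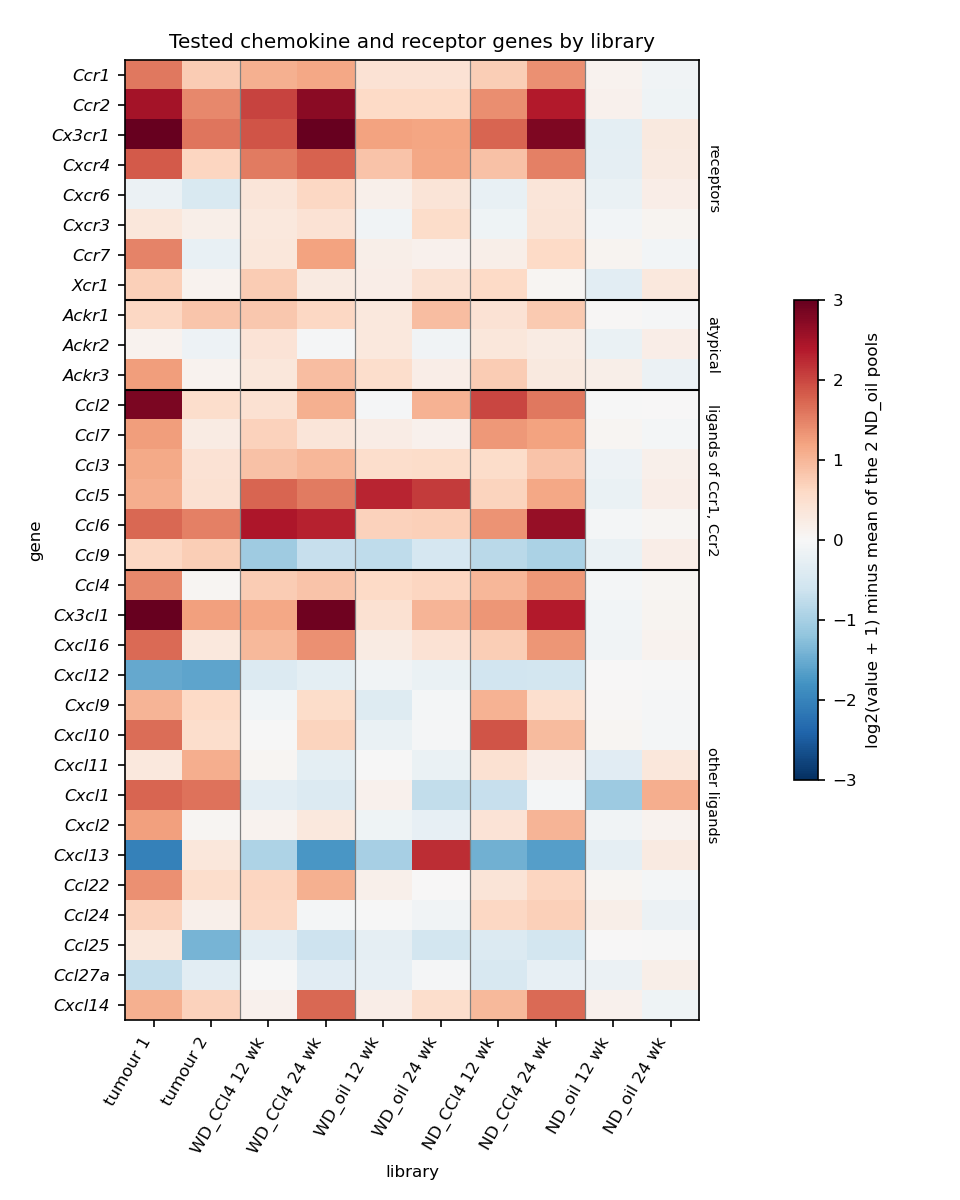
Heat map of the 32 tested chemokine and receptor genes (rows, by role) in the 10 libraries (columns), coloured by log2(value + 1) minus the mean of the 2 ND_oil pools. The colour scale is cut at 3 in either direction, and the receptors Ccr1, Ccr2, Cx3cr1 and Cxcr4 are red in all 4 CCl4 pools, while Ccl9 and Cxcl12 are blue in them.

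The heat map places the members by role, and shows the same 4 receptors above ND_oil in both regimens with CCl4 and the separate course of Ccl5, which was highest in WD_oil.

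**Figure D2:**
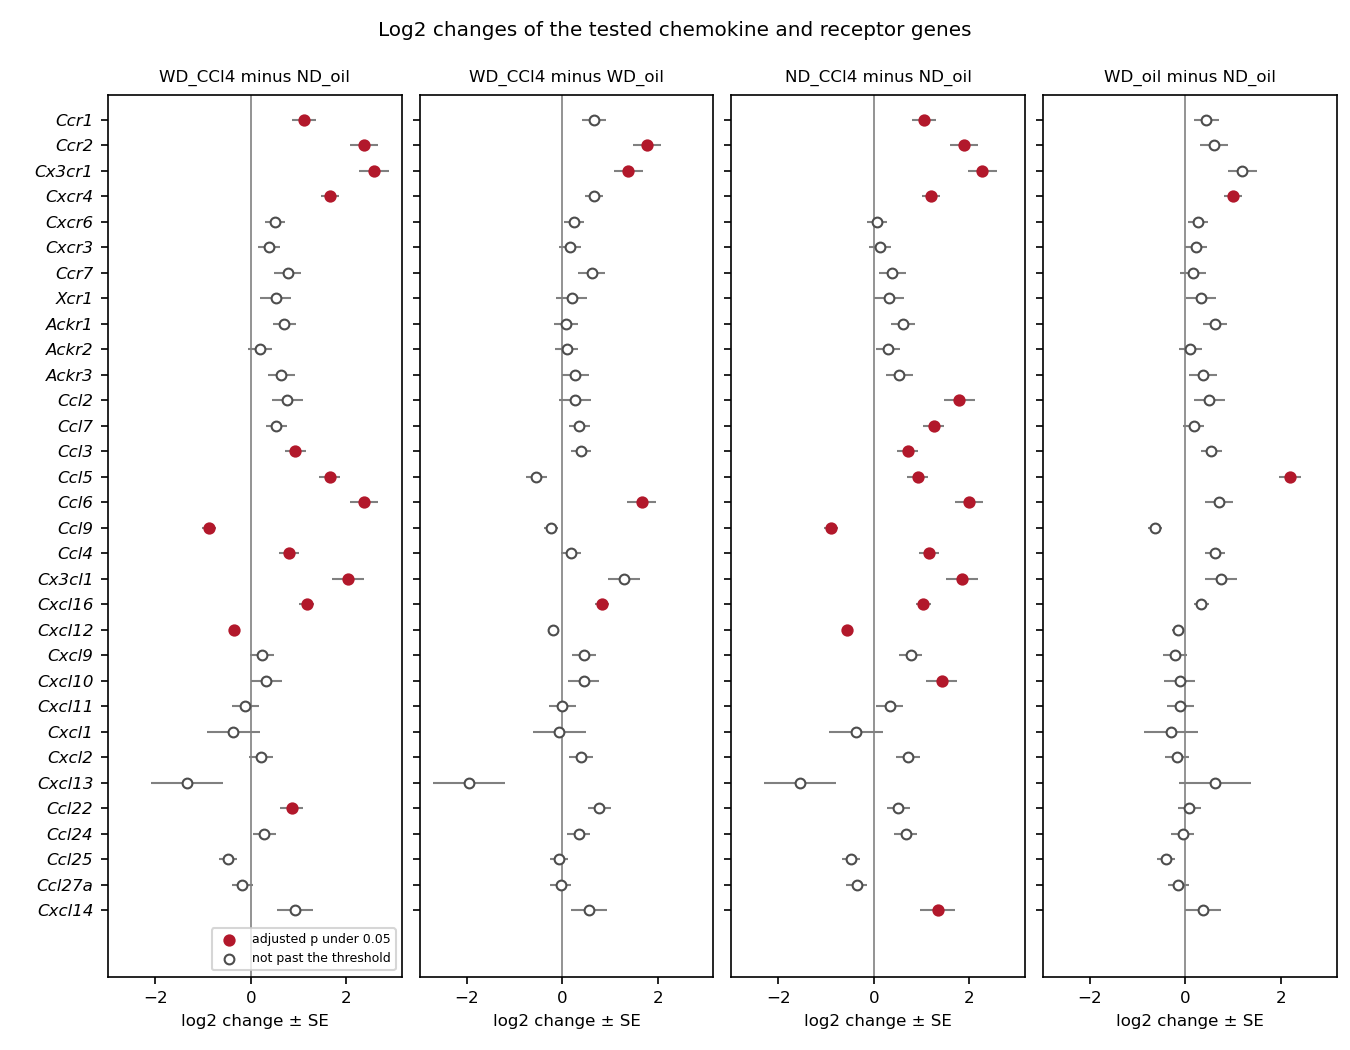
Log2 change of (value + 1) with its standard error (horizontal bars) for each tested member in 4 comparisons, with filled points where the limma adjusted p was under 0.05. The panels with ND_oil below hold 13, 16 and 2 filled points, and the panel of WD_CCl4 minus WD_oil holds 4.

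The plot of log2 changes also shows that the 8 receptors had positive changes in each of these 4 comparisons, whether or not they passed the threshold.

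Per kilobase of annotated exon, the highest mean value over the 8 pools was that of Cxcl12, at 35.9. Ccl9 followed at 20.6 and Ccl6 at 10.1, both ligands of Ccr1 in rodents. Ccl5 stood at 6.41 per kilobase, Cxcl1 at 5.01, Cxcl16 at 4.91 and Cxcl9 at 4.80. Between Cxcl1, Cxcl16 and Cxcl9 the mean levels per kilobase differed by less than the pools of any one of them did. The highest receptor was Cxcr4 at 2.24 per kilobase, and the lowest tested member was Xcr1 at 0.156. These lengths join all annotated exons of a gene, so a gene with a long, little used exon is placed too low.

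The receptors of inflammatory monocytes and macrophages, Ccr2, Cx3cr1 and Ccr1, rose with CCl4 on a normal diet and with the joint exposure. Ccr2 (chr9:124101950-124113557 on GRCm38), the receptor of Ccl2 and Ccl7, measured 8.10 and 13.6 in WD_CCl4, 2.39 and 2.37 in WD_oil, 4.89 and 10.6 in ND_CCl4, against 1.42 and 1.05 in ND_oil. Every CCl4 pool lay above every oil pool, and within each diet the 24-week CCl4 pool was the higher. The log2 change of Ccr2 was 2.37 ± 0.29 (limma adjusted p = 0.000836) for the joint exposure, 1.77 ± 0.29 (limma adjusted p = 0.0132) for CCl4 on Western diet and 1.89 ± 0.29 (limma adjusted p = 0.00283) for CCl4 on normal diet. WD_oil pools lay above ND_oil pools too, with a change of 0.60 ± 0.29 (limma adjusted p = 0.323), which missed the threshold.

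Cx3cr1 (chr9:119901616-120069879), the receptor of fractalkine on monocytes and resident macrophages, measured 5.91 and 17.0 in WD_CCl4, 3.33 and 3.23 in WD_oil, 5.25 and 12.0 in ND_CCl4, against 0.532 and 1.28 in ND_oil. The oil pools on the Western diet lay between the ND_oil pools and the CCl4 pools. Its log2 change of 2.58 ± 0.31 (limma adjusted p = 0.000724) was the largest of all members in the joint exposure. The change was 1.38 ± 0.31 (limma adjusted p = 0.0337) for CCl4 on Western diet and 2.27 ± 0.31 (limma adjusted p = 0.00157) for CCl4 on normal diet. The diet alone gave 1.19 ± 0.31 (limma adjusted p = 0.098). About 1.73% of its annotated exon length overlaps an antisense transcript, and whether reads were counted by strand is not stated.

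Ccr1 (chr9:123962124-123968692), a myeloid receptor for Ccl3, Ccl5, Ccl6, Ccl7 and Ccl9, measured 1.46 and 1.61 in WD_CCl4, 0.598 and 0.593 in WD_oil, 0.955 and 2.05 in ND_CCl4, against 0.266 and 0.0915 in ND_oil. As for Ccr2, every CCl4 pool lay above every oil pool. Ccr1 rose by 1.11 ± 0.25 (limma adjusted p = 0.0141) on the log2 scale with the joint exposure and by 1.05 ± 0.25 (limma adjusted p = 0.0183) with CCl4 on normal diet, and gave 0.67 ± 0.25 (limma adjusted p = 0.151) for CCl4 on Western diet.

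Cxcr4 (chr1:128588199-128592293), the receptor of Cxcl12, was the receptor that also rose with the diet alone. It measured 5.95 and 7.07 in WD_CCl4, 3.25 and 4.26 in WD_oil, 3.34 and 5.76 in ND_CCl4, against 0.976 and 1.83 in ND_oil. The ND_oil pools lay below all others, and the 24-week pool was the higher in every regimen. Its log2 change was 1.66 ± 0.19 (limma adjusted p = 0.00063) for the joint exposure, 1.20 ± 0.19 (limma adjusted p = 0.0034) with CCl4 on normal diet and 1.0 ± 0.19 (limma adjusted p = 0.0383) with the diet alone. With CCl4 on Western diet it was 0.66 ± 0.19 (limma adjusted p = 0.0739). The diet call of Cxcr4 was lost whichever of the 4 oil pools was left out (limma adjusted p of 0.0994 to 0.394), with a change of 0.93 to 1.07.

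The remaining tested receptors belong to lymphocytes and dendritic cells and passed no comparison. Cxcr6, the receptor of Cxcl16 on resident T and natural killer T cells, measured 1.46 and 1.95 in WD_CCl4, 1.11 and 1.48 in WD_oil, 0.636 and 1.45 in ND_CCl4, against 0.665 and 1.19 in ND_oil. Cxcr3, the receptor of Cxcl9, Cxcl10 and Cxcl11 on effector T cells, measured 0.922 and 1.09 in WD_CCl4, 0.427 and 1.26 in WD_oil, 0.398 and 1.01 in ND_CCl4, against 0.444 and 0.640 in ND_oil. Ccr7, which leads mature dendritic cells to lymph nodes, measured 0.845 and 2.33 in WD_CCl4, 0.641 and 0.593 in WD_oil, 0.636 and 1.19 in ND_CCl4, against 0.532 and 0.366 in ND_oil. For these 3 genes ND_CCl4 and ND_oil pools overlapped or lay close, with log2 changes of 0.07, 0.12 and 0.39 for CCl4 on normal diet. Xcr1, a receptor of cross-presenting dendritic cells, measured 1.31 and 0.632 in WD_CCl4, 0.555 and 0.853 in WD_oil, 1.03 and 0.416 in ND_CCl4, against 0.0887 and 0.686 in ND_oil, and its regimens overlapped.

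None of the 3 atypical receptors passed a comparison. Ackr1, which carries chemokines on venular endothelium, measured 2.07 and 1.69 in WD_CCl4, 1.20 and 2.37 in WD_oil, 1.39 and 2.02 in ND_CCl4, against 0.799 and 0.732 in ND_oil, with a log2 change of 0.71 ± 0.25 (limma adjusted p = 0.0659) for the joint exposure. All other regimens lay above ND_oil for this gene, but 25.7% of its exon length is shared with Cadm3 on the same strand, so the reads of the 2 genes could be mixed. Ackr2, a scavenger of inflammatory CC ligands, measured 3.38 and 2.24 in WD_CCl4, 3.08 and 2.08 in WD_oil, 3.18 and 2.91 in ND_CCl4, against 1.86 and 2.79 in ND_oil. Ackr3, which takes up Cxcl12 and Cxcl11, measured 1.08 and 2.13 in WD_CCl4, 1.37 and 0.890 in WD_oil, 1.79 and 1.01 in ND_CCl4, against 0.843 and 0.457 in ND_oil, with the ND_oil pools the lowest.

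Among ligands of Ccr1 and Ccr2, 5 of 6 tested members rose with CCl4 on normal diet and the other, Ccl9, fell. In that comparison 15.3% of all tested genes rose and 10.6% fell. Ccl6 (chr11:83587882-83593087), a Ccr1 ligand of rodents, measured 32.8 and 30.4 in WD_CCl4, 9.23 and 9.42 in WD_oil, 15.1 and 37.9 in ND_CCl4, against 5.06 and 5.58 in ND_oil. All CCl4 pools exceeded all oil pools, and the WD_oil pools exceeded the ND_oil pools. Ccl6 rose by 2.37 ± 0.30 (limma adjusted p = 0.000899) for the joint exposure, by 1.66 ± 0.30 (limma adjusted p = 0.0182) for CCl4 on Western diet and by 1.99 ± 0.30 (limma adjusted p = 0.00241) for CCl4 on normal diet. The diet alone gave 0.71 ± 0.30 (limma adjusted p = 0.262). Ccl9 (chr11:83572919-83578636), a neighbour of Ccl6 on chromosome 11 and also a Ccr1 ligand, measured 43.5 and 56.2 in WD_CCl4, 53.2 and 64.7 in WD_oil, 51.6 and 46.8 in ND_CCl4, against 79.3 and 106 in ND_oil. It thus ran the other way, with the ND_oil pools above all other pools. Ccl9 fell by 0.88 ± 0.15 on the log2 scale (limma adjusted p = 0.00362) in the joint exposure and by 0.89 ± 0.15 on the log2 scale (limma adjusted p = 0.00388) with CCl4 on normal diet. The change was -0.63 ± 0.15 (limma adjusted p = 0.0729) for the diet alone.

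Ccl2, the main monocyte attractant, measured 1.50 and 2.79 in WD_CCl4, 0.769 and 2.71 in WD_oil, 6.24 and 4.42 in ND_CCl4, against 0.799 and 0.823 in ND_oil. The highest pools were those of ND_CCl4, and the WD_CCl4 pools overlapped the WD_oil pools. Ccl2 rose by 1.79 ± 0.33 (limma adjusted p = 0.00598) on the log2 scale with CCl4 on normal diet, while the change was 0.26 ± 0.33 (limma adjusted p = 0.664) on Western diet and 0.76 ± 0.33 (limma adjusted p = 0.118) for the joint exposure. Ccl7, which shares Ccr2 with Ccl2, measured 0.691 and 0.345 in WD_CCl4, 0.214 and 0.148 in WD_oil, 1.55 and 1.42 in ND_CCl4, against 0.0887 and 0 in ND_oil. It rose by 1.25 ± 0.22 (limma adjusted p = 0.00478) with CCl4 on normal diet and gave 0.53 ± 0.22 (limma adjusted p = 0.105) for the joint exposure. Both ligands were thus highest in the same 2 pools, whereas their receptor Ccr2 was highest in a WD_CCl4 pool.

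Ccl3 and Ccl4 attract macrophages and T cells. Ccl3 measured 1.04 and 1.21 in WD_CCl4, 0.598 and 0.630 in WD_oil, 0.636 and 1.01 in ND_CCl4, against 0 and 0.229 in ND_oil, and rose by 0.94 ± 0.22 (limma adjusted p = 0.0146) in the joint exposure and by 0.71 ± 0.22 (limma adjusted p = 0.0417) with CCl4 on normal diet. Ccl4 measured 1.08 and 1.21 in WD_CCl4, 0.855 and 0.927 in WD_oil, 1.43 and 2.02 in ND_CCl4, against 0.177 and 0.274 in ND_oil, and rose by 0.80 ± 0.21 (limma adjusted p = 0.0233) in the joint exposure and by 1.15 ± 0.21 (limma adjusted p = 0.00593) with CCl4 on normal diet. ND_oil pools were the lowest for both genes. With CCl4 on normal diet the Ccl3 call was lost in 6 of the fits with 1 pool left out, and the Ccl4 call in 2. In the joint exposure the Ccl3 call was lost in 2 such fits and the Ccl4 call in 4.

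Ccl5 (chr11:83525778-83530518), which T cells and other cells make and which binds Ccr1, had its highest pools in WD_oil. It measured 8.03 and 6.87 in WD_CCl4, 12.1 and 10.5 in WD_oil, 3.26 and 5.05 in ND_CCl4, against 1.33 and 2.10 in ND_oil. No regimen overlapped another. The diet alone gave a log2 change of 2.19 ± 0.23 (limma adjusted p = 0.00366), the largest of any member in that comparison. Ccl5 also rose by 0.92 ± 0.23 (limma adjusted p = 0.02) with CCl4 on normal diet and by 1.65 ± 0.23 (limma adjusted p = 0.0014) in the joint exposure. CCl4 on Western diet gave -0.54 ± 0.23 (limma adjusted p = 0.185), with both WD_CCl4 pools under both WD_oil pools. Without the WD_oil pool of 12 weeks the change with the diet alone was 1.98 and missed the threshold (limma adjusted p = 0.0988).

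Cx3cl1 (chr8:94772009-94782427), or fractalkine, is a membrane-bound ligand of endothelium and epithelium that binds Cx3cr1. It measured 2.84 and 12.0 in WD_CCl4, 1.37 and 2.48 in WD_oil, 3.30 and 7.90 in ND_CCl4, against 0.621 and 0.823 in ND_oil. The 24-week pool was the higher in each regimen, by the widest margin in WD_CCl4. Its log2 change was 2.04 ± 0.34 (limma adjusted p = 0.00336) for the joint exposure, 1.85 ± 0.34 (limma adjusted p = 0.00586) for CCl4 on normal diet and 1.30 ± 0.34 (limma adjusted p = 0.0547) for CCl4 on Western diet.

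Cxcl16 (chr11:70453983-70459984), a membrane-bound ligand of Cxcr6, measured 17.8 and 23.6 in WD_CCl4, 10.3 and 11.9 in WD_oil, 15.1 and 22.9 in ND_CCl4, against 7.85 and 9.33 in ND_oil. All CCl4 pools exceeded all oil pools. It rose by 1.17 ± 0.15 (limma adjusted p = 0.0011) in the joint exposure, by 0.83 ± 0.15 (limma adjusted p = 0.0197) with CCl4 on Western diet and by 1.03 ± 0.15 (limma adjusted p = 0.00233) with CCl4 on normal diet. Some 18.3% of its exon length overlaps Zmynd15 on the opposite strand, so reads of the 2 genes cannot be told apart if strand was not used.

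Cxcl12 (chr6:117168535-117181367) measured 264 and 285 in WD_CCl4, 324 and 302 in WD_oil, 236 and 236 in ND_CCl4, against 353 and 346 in ND_oil. The CCl4 pools lay under the oil pools of the same diet, and the ND_oil pools were the highest. It fell by 0.35 ± 0.11 on the log2 scale (limma adjusted p = 0.0493) in the joint exposure and by 0.56 ± 0.11 on the log2 scale (limma adjusted p = 0.00828) with CCl4 on normal diet. For CCl4 on Western diet the change was -0.19 ± 0.11 (limma adjusted p = 0.331). The joint call of Cxcl12 was lost whichever of the 8 pools was left out and with TMM scaling. Its change stayed between -0.42 and -0.27 in these fits. Counting TMM scaling, 8 of the other processing settings lost that call.

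The interferon-responsive ligands Cxcl9, Cxcl10 and Cxcl11 attract Cxcr3-bearing T cells. Cxcl10 measured 3.46 and 6.09 in WD_CCl4, 2.91 and 3.37 in WD_oil, 15.7 and 7.63 in ND_CCl4, against 3.68 and 3.29 in ND_oil, so that the 12-week ND_CCl4 pool stood above all others. It rose by 1.42 ± 0.33 (limma adjusted p = 0.0149) with CCl4 on normal diet, and gave 0.33 ± 0.33 (limma adjusted p = 0.485) for the joint exposure. Cxcl9 measured 11.2 and 17.9 in WD_CCl4, 8.93 and 11.3 in WD_oil, 25.5 and 17.2 in ND_CCl4, against 12.2 and 11.5 in ND_oil, again highest in the 12-week ND_CCl4 pool, and its log2 change of 0.77 ± 0.25 (limma adjusted p = 0.0503) for CCl4 on normal diet missed the threshold. Cxcl11 measured 0.768 and 0.402 in WD_CCl4, 0.684 and 0.482 in WD_oil, 1.35 and 0.950 in ND_CCl4, against 0.355 and 1.14 in ND_oil, and passed no comparison. In this annotation it is a polymorphic pseudogene, and 41.7% of its exon length overlaps a processed pseudogene.

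The tested neutrophil attractants did not pass a comparison between livers. Cxcl1 measured 8.03 and 7.35 in WD_CCl4, 11.2 and 5.75 in WD_oil, 5.97 and 9.65 in ND_CCl4, against 4.21 and 23.0 in ND_oil, so that the lowest and the highest pool were both ND_oil pools, and its log2 change was -0.36 ± 0.56 (limma adjusted p = 0.66) for the joint exposure. Cxcl2, with the same kappaB run upstream, measured 0.269 and 0.460 in WD_CCl4, 0.0855 and 0 in WD_oil, 0.557 and 1.40 in ND_CCl4, against 0.0887 and 0.274 in ND_oil, and gave 0.71 ± 0.25 (limma adjusted p = 0.0653) for CCl4 on normal diet. Cxcl3 was listed at 0 in all 8 liver pools and at 0.313 and 0.0776 in tumours 1 and 2, so it went undetected in pools where Cxcl1, with the same run upstream, was measured.

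Cxcl13, the B-cell attractant that binds Cxcr5, measured 1.15 and 0.230 in WD_CCl4, 1.07 and 18.1 in WD_oil, 0.517 and 0.297 in ND_CCl4, against 2.40 and 3.93 in ND_oil. A single pool, WD_oil at 24 weeks, stood far above the rest, and the gene passed no comparison. Cxcl14, whose receptor is not settled, measured 1.69 and 7.21 in WD_CCl4, 1.84 and 2.60 in WD_oil, 3.82 and 7.10 in ND_CCl4, against 1.69 and 1.28 in ND_oil, and rose by 1.34 ± 0.37 (limma adjusted p = 0.0296) with CCl4 on normal diet. Ccl22, a ligand of Ccr4 made by dendritic cells and macrophages, measured 0.768 and 1.38 in WD_CCl4, 0.256 and 0.148 in WD_oil, 0.477 and 0.772 in ND_CCl4, against 0.177 and 0.0915 in ND_oil, and rose by 0.86 ± 0.24 (limma adjusted p = 0.0315) in the joint exposure. Among the pools, Cxcl14 and Ccl22 were highest in WD_CCl4 at 24 weeks. The joint call of Ccl22 was lost in 7 of the fits with 1 pool left out. The call of Cxcl14 with CCl4 on normal diet was lost in 5 such fits. Of the other processing settings, 1 lost that call of Ccl22 and 3 lost that of Cxcl14.

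Ccl24, Ccl25 and Ccl27a bind Ccr3, Ccr9 and Ccr10. Ccl25 measured 2.30 and 1.67 in WD_CCl4, 2.44 and 1.82 in WD_oil, 2.11 and 1.84 in ND_CCl4, against 3.19 and 3.07 in ND_oil, with the ND_oil pools the highest and a log2 change of -0.48 ± 0.19 (limma adjusted p = 0.101) for the joint exposure. Ccl24 measured 2.50 and 1.21 in WD_CCl4, 1.28 and 1.11 in WD_oil, 2.51 and 2.73 in ND_CCl4, against 1.60 and 1.01 in ND_oil. Ccl27a measured 3.03 and 2.24 in WD_CCl4, 2.44 and 2.97 in WD_oil, 1.95 and 2.46 in ND_CCl4, against 2.62 and 3.61 in ND_oil. Neither gene passed a comparison. Ccl27a has a near-identical copy, Ccl27b, that was listed at 0, so reads could have been lost or assigned to 1 copy.

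Ligands were then set beside their receptors in 37 textbook pairs, of which 15 had both partners tested. With CCl4 on normal diet both partners rose in 7 pairs. They were Ccr2 with Ccl2 and Ccl7, Ccr1 with Ccl3, Ccl5, Ccl6 and Ccl7, and Cx3cr1 with Cx3cl1. In 2 pairs the receptor rose and the ligand fell, namely Cxcr4 with Cxcl12 and Ccr1 with Ccl9. In the joint exposure 4 pairs rose on both sides and 2 had a rising receptor with a falling ligand, while in 3 pairs the receptor alone rose, all with Ccl2 or Ccl7 as the ligand. With CCl4 on Western diet the receptor alone rose in 3 pairs and the ligand alone in 2, and no pair rose on both sides. With the diet alone the receptor alone rose in 1 pair and the ligand alone in 1. Shares of all tested genes, for single genes and not for pairs, were 15.3% rising and 10.6% falling with CCl4 on normal diet. They were 15.7% and 10.2% in the joint exposure, 4.29% and 2.52% with CCl4 on Western diet, and 1.45% and 0.546% with the diet alone. The pairs share members, above all Ccr1 and Ccr2, so their counts are not independent and largely repeat the calls of a few receptors.

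**Figure D3:**
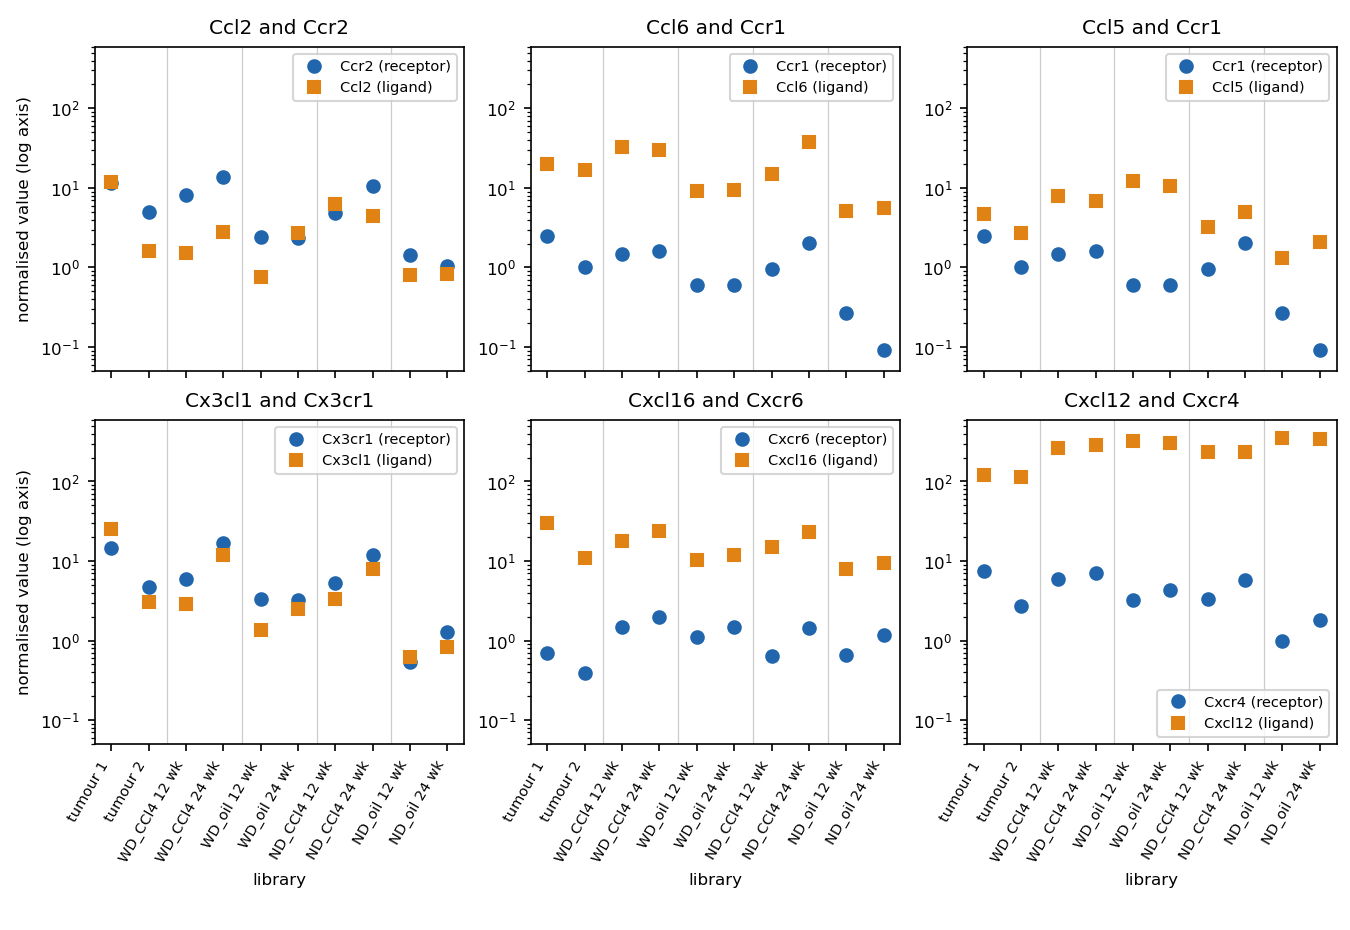
Normalised values (log axis) of 5 receptors (blue circles) and 1 ligand beside each (orange squares) in the 10 libraries, with Ccr1 shown in 2 panels. Cx3cl1 and Cx3cr1 cover overlapping ranges, 0.621 to 25.5 and 0.532 to 17.0. Cxcl12 stays between 115 and 353 as Cxcr4 ranges from 0.976 to 7.47.

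The plot of pairs by library gives the values behind these counts, and levels of different genes in it are not corrected for length.

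Genes around the chemokines were counted from lists of the same pathway. For comparison, 15.7% of all tested genes rose and 10.2% fell in the joint exposure, 4.29% rose and 2.52% fell with CCl4 on Western diet, 15.3% rose and 10.6% fell with CCl4 on normal diet, and 1.45% rose and 0.546% fell with the diet alone. Of 18 tested inducers and transcription factors of chemokine genes, 11 rose and none fell with CCl4 on normal diet, 8 rose in the joint exposure, 4 with CCl4 on Western diet and none with the diet alone. Tnfaip3, a brake on NF-kappaB that NF-kappaB itself induces, measured 10.7 and 17.0 in WD_CCl4, 5.43 and 8.75 in WD_oil, 13.4 and 16.5 in ND_CCl4, against 3.19 and 4.57 in ND_oil, and rose by 1.72 ± 0.16 (limma adjusted p = 0.000373) with CCl4 on normal diet. The toll-like receptor gene Tlr2 changed by 1.37 and the interferon factor gene Irf8 by 1.13 in that comparison. Of 20 tested genes that signal below chemokine receptors, 12 rose with CCl4 on normal diet, and in the joint exposure 15 rose and 1, the G protein gene Gnai3, fell. With CCl4 on Western diet 6 rose, and with the diet alone 1 did. That one was Rgs16, which shortens G protein signals, and it measured 94.3 and 135 in WD_CCl4, 45.5 and 63.8 in WD_oil, 96.1 and 158 in ND_CCl4, against 8.78 and 3.29 in ND_oil. Of 6 tested relatives outside the family, such as the chemerin receptor Cmklr1, 1 rose in each of the 4 comparisons, and it was Cmklr1, at 9.76 and 11.6 in WD_CCl4, 3.85 and 5.67 in WD_oil, 6.32 and 9.62 in ND_CCl4, against 1.51 and 2.84 in ND_oil. In the tumour comparison no gene of these 3 lists passed.

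Markers of cells that carry these receptors or make these ligands moved with some of the same comparisons. Their counts stand against the shares of all tested genes that rose, 15.7% in the joint exposure, 4.29% with CCl4 on Western diet, 15.3% with CCl4 on normal diet and 1.45% with the diet alone. The summed value of 6 macrophage markers was 449 to 485 in WD_CCl4, 255 to 308 in WD_oil and 238 to 421 in ND_CCl4, against 109 to 166 in ND_oil. All 6 rose with CCl4 on normal diet and in the joint exposure, and 2 of them with the diet alone and with CCl4 on Western diet. Adgre1 and the T cell marker Trac were not among the rows used. Of 5 dendritic cell markers, 4 rose in the joint exposure and 1 with CCl4 on either diet, and their sum was 16.1 to 29.4 in WD_CCl4, 6.54 to 8.75 in WD_oil and 12.9 to 24.4 in ND_CCl4, against 4.92 to 5.54 in ND_oil. Of 4 tested recruited monocyte markers 1, Plac8, rose in each of the 3 CCl4 comparisons. Their summed value, nearly all from Fn1, which hepatocytes also make, was 1089 to 1104 in WD_CCl4, 1340.0 to 1357 in WD_oil and 931 to 1226 in ND_CCl4, against 833 to 1381 in ND_oil. Kupffer cell markers summed to 484 to 743 in WD_CCl4, 476 to 563 in WD_oil and 579 to 603 in ND_CCl4, against 530.1 to 629 in ND_oil. Among these 6, Cd5l rose and C6 fell with CCl4 on normal diet, where 10.6% of all tested genes fell. In the joint exposure Cd5l and Vsig4 rose and C6 fell, where 10.2% of all tested genes fell. No marker of these 4 lists was at 0 throughout. Their part in the receptor and ligand results was not tested.

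Other marker lists moved less evenly. Beside them, 15.7% of all tested genes rose and 10.2% fell in the joint exposure, and 15.3% rose and 10.6% fell with CCl4 on normal diet. With CCl4 on Western diet 4.29% rose and 2.52% fell, and 1.45% rose with the diet alone. Of 5 stellate cell markers, 5 rose in the joint exposure, 4 with CCl4 on normal diet, 2 with the diet alone and 1 with CCl4 on Western diet. Sums of that list were 137 to 166 in WD_CCl4, 105 to 112 in WD_oil and 114 to 141 in ND_CCl4, against 60.1 to 65.0 in ND_oil. Of 5 sinusoidal endothelium markers 3 rose in the joint exposure and 4 with CCl4 on normal diet. T cell markers summed to 7.91 to 8.33 in WD_CCl4, 7.82 to 11.0 in WD_oil and 5.69 to 6.03 in ND_CCl4, against 5.81 to 8.10 in ND_oil, and the highest sum was in a WD_oil pool. Of 5 tested T cell markers Cd4 fell with CCl4 on normal diet, and in the joint exposure Cd4 fell and Cd8a rose. Csf3r alone rose among 3 tested neutrophil markers, in the joint exposure and with CCl4 on normal diet, and no natural killer cell or B cell marker passed. Bile duct markers Epcam and Spp1 rose in the same comparisons, and Spp1 also with CCl4 on Western diet. Of 7 hepatocyte markers, Serpina1c and Apoa1 fell with CCl4 on normal diet and in the joint exposure, and Serpina1c with CCl4 on Western diet. Beside these sums, too, any part in the chemokine results was not tested.

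No tested member passed by limma, edgeR or DESeq2 when the Western diet was added to CCl4 (WD_CCl4 against ND_CCl4). Of all tested genes 0.00791% rose and 0.0395% fell. Ccl2 gave a log2 change of -1.03 ± 0.33 (limma adjusted p = 0.562) there and Cxcl10 -1.09 ± 0.33 (limma adjusted p = 0.532), with WD_CCl4 pools below ND_CCl4 pools for both. Whether CCl4 acted differently on the 2 diets was tested by the interaction, in which no member passed, where 0.0553% of all tested genes passed upward and 0.0474% downward. For the interaction edgeR called no member and DESeq2 called Ccl5. The interaction of Ccl5 was -1.46 ± 0.32 (limma adjusted p = 0.224), against a DESeq2 adjusted p of 0.0172, with CCl4 pools below oil pools on the Western diet and above them on the normal diet. Those of Ccl2, -1.53 ± 0.46 (limma adjusted p = 0.393), and Ccl4, -0.97 ± 0.30 (limma adjusted p = 0.393), were also negative.

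Duration was compared across the 4 regimens (24 against 12 weeks), and no member passed by limma, where 0% of all tested genes rose and 0% fell. For duration edgeR called no member and DESeq2 called Cx3cl1. For Cx3cl1 the log2 change was 0.88 ± 0.24 (limma adjusted p = 0.334), against a DESeq2 adjusted p of 0.0137, and its 24-week pool was the higher in 4 of 4 regimens. Cx3cr1 gave 0.74 ± 0.22 (limma adjusted p = 0.343), with the 24-week pool lower in WD_oil. Cxcr4 gave 0.42 ± 0.14 (limma adjusted p = 0.348), and its 24-week pool was the higher in all 4 regimens.

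The 2 tumours were compared with WD_CCl4 liver. Ccl9 rose and Cxcl12 fell, as 2 of 32 members, where 0.466% of all tested genes rose and 0.506% fell. Ccl9 measured 142 and 154 in the tumours, against 43.5 and 56.2 in WD_CCl4 liver, and both tumours lay above all 8 pools. Its log2 change was 1.45 ± 0.18 (limma adjusted p = 0.0209). Cxcl12 measured 121 and 115 in the tumours, against 264 and 285 in WD_CCl4 liver, and both tumours lay below all 8 pools. Cxcl12 fell by 1.21 ± 0.16 on the log2 scale (limma adjusted p = 0.0209). Both calls were lost whichever of the 8 pools was left out and in a fit of the 4 Western diet and CCl4 libraries alone, where no member passed, while 8 members passed without tumour 1 and 5 without tumour 2. Tumours and pools differ in that a tumour is 1 mouse and a pool is 4, and how much liver tissue a tumour sample held is not stated in the labels.

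Cxcl1 was the other tested member with both tumours above all 8 pools, at 36.5 and 33.5, against 8.03 and 7.35 in WD_CCl4 liver. Its log2 change was 1.82 ± 0.64 (limma adjusted p = 0.219). Cxcr6 measured 0.704 and 0.388 in the tumours, against 1.46 and 1.95 in WD_CCl4 liver, and gave -0.99 ± 0.24 (limma adjusted p = 0.105). Ccl5 measured 4.73 and 2.68 in the tumours, against 8.03 and 6.87 in WD_CCl4 liver, and gave -0.94 ± 0.31 (limma adjusted p = 0.195). None of these 3 passed.

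The tumours differed from each other in most members. Of the 32, 27 were higher in tumour 1 than in tumour 2, and 17 were at least 2-fold higher, where 49.6% of all tested genes were higher and 12.0% at least 2-fold higher. With 1 library each, this has no test. Cx3cl1 measured 25.5 in tumour 1 and 3.07 in tumour 2, Ccl2 measured 11.9 and 1.59, and Cxcl16 measured 30.3 and 10.9. In these 3 ligands tumour 1 lay above all 8 pools and tumour 2 within their range. Tumour 1 also lay above all 8 pools in 11 other tested members, making 14 of 32, where it did so in 25.5% of all tested genes. Ccl22 and Cxcl2, among these 14 and among the 17 above, would not have passed the filter without tumour 1. Ccr2 measured 11.5 in tumour 1 and 5.05 in tumour 2, Cx3cr1 14.5 and 4.66, and Cxcr4 7.47 and 2.72. Of the 5 members higher in tumour 2, Cxcl11 measured 2.60 there, above all 8 pools, and Cxcl13 measured 4.15, against 0 in tumour 1. Macrophage markers summed to 317 in tumour 1 and 238 in tumour 2, and dendritic cell markers to 24.7 and 9.51. Sums of T cell and sinusoidal endothelium markers were also higher in tumour 1. Recruited monocyte markers summed to 1537 in tumour 1 and 3277 in tumour 2, and neutrophil markers to 9.81 and 12.96. The monocyte list holds Fn1, which hepatocytes also make and which gave nearly all of that sum in the liver pools. Kupffer cell markers summed to 311 and 322, and hepatocyte markers to 79480 and 240819. Sums of natural killer cell, B cell, stellate cell and bile duct markers were also higher in tumour 2. The part of these cells in the difference between the tumours was not tested.

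**Figure D4:**
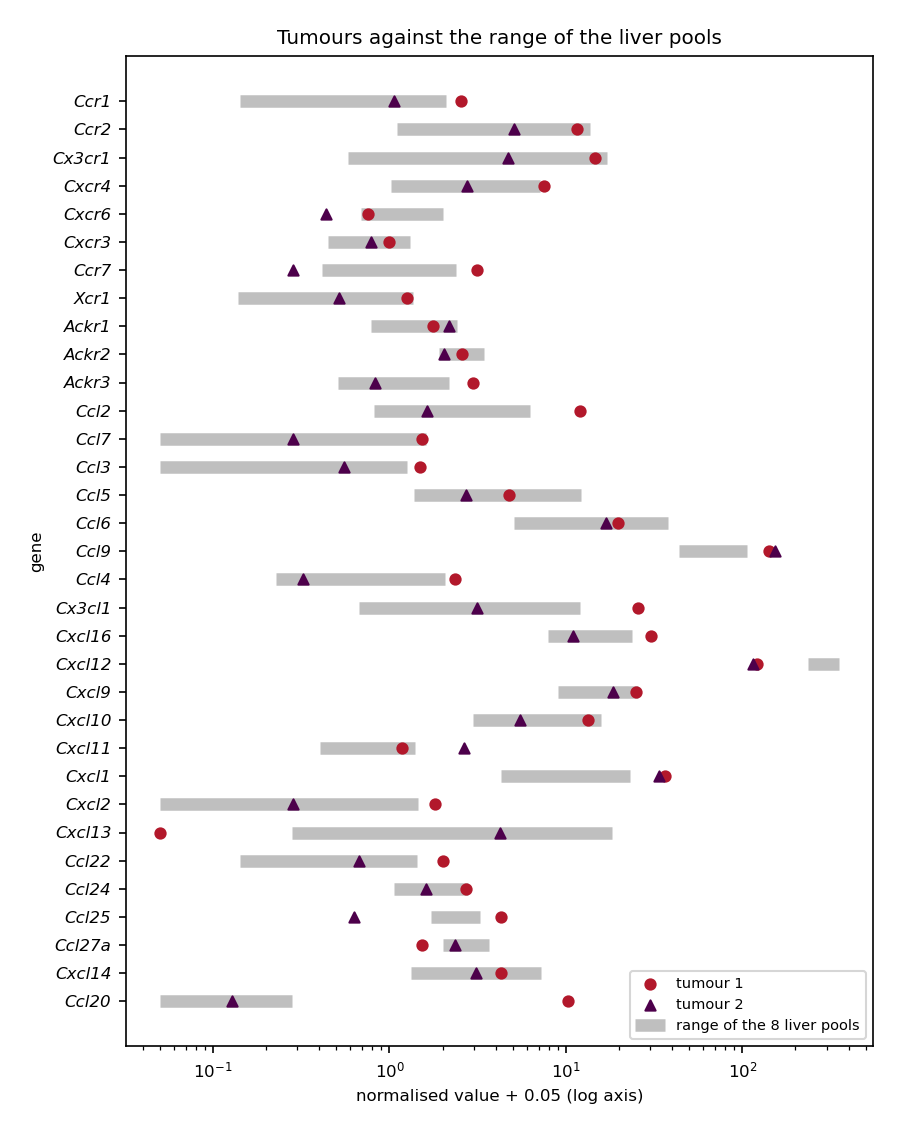
Normalised values plus 0.05 (log axis) of the 32 tested members and Ccl20 in tumour 1 (circles) and tumour 2 (triangles), with grey bars for the range of the 8 liver pools. Ccl9 and Cxcl1 have both tumours above the bar and Cxcl12 has both below it, and Ccl20 stands at 10.2 in tumour 1 alone.

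The plot of tumours against pools shows how often the circle lies to the right of the triangle.

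The other 27 members did not reach the filter, and 7 of them were listed at 0 in all libraries: Ccl1, Ccl21a, Ccl21b, Ccl21c, Ccl26, Ccl27b and Cxcl15. Copies of Ccl21 and Ccl27 are near-identical, so their reads could have been lost or split in counting. Ccl20, a ligand of Ccr6 whose upstream kappaB letters are shown above, reached 10.2 in tumour 1, and was 0.0776 in tumour 2 and at most 0.230 in the liver pools. Ccr10 reached 1.02 in tumour 1. Cxcl5, a ligand of Cxcr2, measured 0.307 and 1.29 in WD_CCl4, 0.0855 and 0.222 in WD_oil, 0.796 and 0.653 in ND_CCl4, against 0 and 0.137 in ND_oil. An edgeR quasi-likelihood fit of 15680 genes with at least 10 reads, added after seeing the data, called Cxcl5 higher in the joint exposure, with a log2 change of 3.43 (edgeR adjusted p = 0.0457), and with CCl4 on normal diet, at 3.57 (edgeR adjusted p = 0.0423). These rest on 0 and 3 reads in the ND_oil pools, so the size of the change depends on the fit's prior count. No other member below the filter was called in that fit.

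The remaining members stayed under 1 in every library, and for each the highest value is given. Among receptors these were 0.890 for Cxcr5, 0.704 for Ccr9, 0.626 for Ccr3 and for Cxcr2, 0.278 for Ccr6 and 0.235 for Cxcr1. Ccr4 reached 0.115 and Ccr8 0.0855. Among ligands the highest values were 0.772 for Xcl1, 0.640 for Ccl19, 0.534 for Ccl28, 0.457 for Ccl8 and 0.313 for Cxcl3. Cxcl17 reached 0.272, Ccl12 0.239, Ccl17 0.156 and Ccl11 0.115.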

How the data were processed

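RNA of frozen liver was purified with an RNeasy kit and made into TruSeq libraries after poly-A selection, per the labels' protocols. STAR and the build mm10 are named, per the submitters' processing notes, while counter, annotation and scaling are not given in these sources. The authors deposited 1 normalised signal per gene and library. Dividing a library's values by 1 constant gave whole reads (tolerance 0.01) for 100% of them, and these reads were recovered.

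Comparisons used limma 3.58.1 in R 4.3.3 on log2(value + 1) of 12648 genes, with 1 mean per regimen, a duration term and a trended spread, two-sided, adjusted by Benjamini-Hochberg over these genes. There were 8 pools and 3 residual degrees of freedom, or 10 libraries and 4 for tumours, so p-values weigh changes against the spread between pools, not animals. As no pool was repeated, that spread among livers is the difference between the pools of a regimen beyond the common duration term. A regimen effect that changes with duration therefore counts as spread. The fits were tested on simulated data. Members, lists and pairs were chosen with earlier results of these data known. Members named with full values were those called, the most abundant uncalled and the receptors with their ligands. Alternatives were a pseudocount of 0.1, other filters, TMM, no trend, no duration term, other libraries in the fit, each library left out, and edgeR 4.0.16 and DESeq2 1.42.0 on recovered reads. Coordinates and exon lengths come from GENCODE on GRCm38, and promoters from RefSeq on GRCm38.p6. Raw reads were not used here, and 1 gene is not reported here.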

Additional observations from a re-analysis of the deposited data

Results flagged for a closer look

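Ccl5 differed in the direction of its CCl4 change between the diets. On the Western diet the log2 changes were -0.54 at 12 weeks and -0.55 at 24 weeks, and on the normal diet they were 0.87 and 0.96, so the difference was -1.46. The interaction missed the threshold in limma (adjusted p = 0.224), and DESeq2 called it (adjusted p = 0.0172). Xcr1 and Cxcl11 differed in the direction of the CCl4 change between durations. For Xcr1 the log2 changes at 24 weeks were -0.18 on the Western diet and -0.25 on the normal diet, and at 12 weeks they were 0.57 on the Western diet and 0.90 on the normal diet, a difference of -0.95. For Cxcl11 the log2 changes at 24 weeks were -0.08 on the Western diet and -0.14 on the normal diet, and at 12 weeks 0.07 on the Western diet and 0.80 on the normal diet, a difference of -0.54. These last 2 differences were not tested and rest on few reads. Cxcl11 on the Western diet had 20 reads with CCl4 and 16 with oil at 12 weeks, and 14 and 13 at 24 weeks. Xcr1 had 2 reads in ND_oil at 12 weeks. At 24 weeks Xcr1 had 22 with CCl4 and 23 with oil on the Western diet, and 14 and 15 on the normal diet. The share of all tested genes with such a reversal was not taken.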

How the results depend on the processing

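No direction of a called member turned round under any alternative. With CCl4 on normal diet 16 members passed, against 10 with no filter on low values, 2 with the tumours in the fit and 8 to 18 with 1 pool left out. In the joint exposure 13 passed, against 6 with the tumours in the fit and 8 to 14 with 1 pool left out. With CCl4 on Western diet 4 passed, against 0 with no filter, 2 with no duration term, 0 with the tumours in the fit and 0 to 5 with 1 pool left out. With the diet alone 2 passed, against 0 with no filter, 1 with no duration term, 0 with the tumours in the fit, 4 by DESeq2 and 0 to 3 with 1 pool left out. DESeq2 called 1 member in the interaction and 1 for duration, where limma called 0. In tumours 2 passed, against 4 by DESeq2, 0 in the 4 Western diet and CCl4 libraries alone and 0 to 8 with 1 library left out. The causes were not tested. Duration has no value without its own term. TMM, edgeR, a pseudocount of 0.1, no trend and the stricter filter kept every count of members within 1.5 times, as did the added edgeR fit. A regimen that loses a pool is left with 1, assumed to vary like the others. Pools of the same time were paired by the duration term, and tumours share no number with the pools. With 1 pool of 4 mice per regimen and time, the spread between animals is unknown, and low members rest on few reads.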
